A study of Mus musculus with 12 samples.

Results

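The plasma protein genes Afp, Alb, Apoa1, Ttr, Serpina1a, Fga, Fgb, Fgg, Ahsg and Trf were followed in whole embryonic mouse kidneys. They are 10 of the 19057 genes named on the array. Every probe annotated to 1 of them was taken, 13 of 45281 probes. Of these 13, 9 probes of 8 genes were kept for testing, against 21526 probes kept in all. Each probe has a detection p on each array, which sets it against that array's negative control beads. A probe counts as detected where this p falls below 0.05, and it was kept where that held for 3 or more arrays.

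The kidneys came from CD-1 mice. The 4 groups of 3 arrays were E17.5 kidneys homozygous for a null allele of Pkd1 (mutants; arrays 12, 40 and 42), E17.5 WT kidneys (arrays 2, 38 and 41), E14.5 mutant kidneys (arrays 35, 59 and 65) and E14.5 WT kidneys (arrays 34, 57 and 58). Each array held RNA of 1 pair of kidneys, and WT and mutant embryos were littermates that the labels do not pair. The null allele was present throughout the embryo, not in the kidney alone, so mutant and WT embryos also differ outside the kidney. The kidneys were measured whole, and in such bulk samples fewer cells of a type and less RNA per cell cannot be told apart.

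Plasma proteins are secreted mainly by the hepatocytes of the liver, and before and around birth also by the yolk sac and at low levels by other epithelia. Albumin and alpha-fetoprotein carry small molecules, transthyretin carries thyroid hormone and, with Rbp4, retinol, and transferrin carries iron. Apolipoprotein A-I is the main protein of high-density lipoprotein. Alpha-1-antitrypsin, encoded by Serpina1a and its copies, inhibits neutrophil elastase, fibrinogen is built of the chains encoded by Fga, Fgb and Fgg, and fetuin-A, encoded by Ahsg, binds calcium phosphate and is abundant in fetal plasma. In the fetus the liver is also the main site of blood formation, so it holds many red cell precursors beside hepatocytes.

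The kidney label was borne out by the kidney genes measured. Six2, a gene of nephron progenitors, and Nphs1, a gene of podocytes, were detected on all 3 arrays of each E17.5 group, with Six2 at 6.58 to 6.84 in mutants and 6.54 to 7.12 in WT on the log2 intensity scale, on which all levels are given. Umod, a gene of the thick ascending limb, lay at 9.25 to 10.27 in E17.5 mutants and 11.22 to 11.59 in E17.5 WT. Pax2 had no kept probe and Wt1 no probe with its symbol. The Pkd1 probe read 7.63 to 7.84 in E17.5 mutants and 6.80 to 7.61 in E17.5 WT, and at E14.5 7.23 to 7.81 in mutants and 6.36 to 6.84 in WT. It was not lower in mutants, and where it lies relative to the altered part of the gene was not analysed here, so it does not check the genotype labels. Detected probes made up 42.8 to 44.8% of each array, and E17.5 WT array 2 was within this range at 43.9%.

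The upstream sequences of 5 of the genes are shown because hepatocytes transcribe such genes through a small set of factors, among them HNF1, HNF4, C/EBP and FOXA proteins. The RefSeq table of the GRCm38.p6 build gave the 250 bases before the annotated start for 8 of the 10 genes. The letters searched on both strands were GTTAAT for HNF1, CAAAGTCCA for HNF4, TTGCNNAA for C/EBP and TGTTTGC for FOXA, where N stands for any base, and no match overlapped another in the sequences shown. The windows shown lie at chr16:22891765-22892014 for Ahsg, chr3:83025903-83026152 for Fga, chr3:83007474-83007723 for Fgg, chr9:46228380-46228629 for Apoa1 and chr5:90490464-90490713 for Afp, each on the plus strand. Capitals mark the matched letters.
Ahsg: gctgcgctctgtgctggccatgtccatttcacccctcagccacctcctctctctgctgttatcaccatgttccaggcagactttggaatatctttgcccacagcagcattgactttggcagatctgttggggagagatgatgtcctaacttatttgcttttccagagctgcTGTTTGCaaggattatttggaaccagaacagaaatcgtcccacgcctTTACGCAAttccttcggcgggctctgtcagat
Fga: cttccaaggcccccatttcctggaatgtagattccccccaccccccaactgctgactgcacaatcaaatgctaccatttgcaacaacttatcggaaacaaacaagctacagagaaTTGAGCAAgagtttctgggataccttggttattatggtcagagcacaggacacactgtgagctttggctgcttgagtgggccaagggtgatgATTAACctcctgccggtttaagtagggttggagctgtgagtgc
Fgg: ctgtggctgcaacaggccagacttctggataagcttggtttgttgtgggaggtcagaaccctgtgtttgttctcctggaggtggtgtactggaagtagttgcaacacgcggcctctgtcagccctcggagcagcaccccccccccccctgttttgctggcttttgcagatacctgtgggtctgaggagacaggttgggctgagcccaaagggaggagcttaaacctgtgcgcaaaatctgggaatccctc
Apoa1: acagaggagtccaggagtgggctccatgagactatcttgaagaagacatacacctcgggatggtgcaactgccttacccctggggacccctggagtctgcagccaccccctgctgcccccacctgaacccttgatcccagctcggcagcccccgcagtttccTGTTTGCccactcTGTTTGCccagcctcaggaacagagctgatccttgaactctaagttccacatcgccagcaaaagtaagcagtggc
Afp: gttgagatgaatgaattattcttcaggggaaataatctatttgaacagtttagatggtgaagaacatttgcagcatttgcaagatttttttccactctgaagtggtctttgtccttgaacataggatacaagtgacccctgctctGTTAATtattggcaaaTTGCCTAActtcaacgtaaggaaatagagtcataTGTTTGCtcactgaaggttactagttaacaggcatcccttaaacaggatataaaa
The HNF1 letters were found in 5 of the 8 windows (Fga, Fgb, Alb, Afp and Serpina1a), against 6.43% of the 32851 windows in the table. The C/EBP letters were also in 5 windows (Fga, Fgb, Alb, Afp and Ahsg), against 9.56% of all windows. The FOXA letters were in 5 windows (Alb, Afp, Apoa1, Serpina1a and Ahsg), against 4.3%, and the HNF4 letters were in 0 of 8, against 0.384%. The Fgg window held none of these letters, which says only that they are not in these 250 bases.

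Ahsg was not detected in E17.5 mutants, where its kept probe, ILMN_2993745, read 4.62, 5.33 and 4.72 on arrays 12, 40 and 42, against 13.25, 5.60 and 7.97 on E17.5 WT arrays 2, 38 and 41. At E14.5 it read 5.05, 5.60 and 4.79 on mutant arrays 35, 59 and 65, detected on array 59 alone, and 4.79, 4.81 and 4.73 on WT arrays 34, 57 and 58, detected on none. Array 2 thus stood far above every other array, and array 41 was the next highest. The other Ahsg probe, ILMN_2764036, was not kept, as it was detected on 2 arrays, and these were the same 2: 11.76 on array 2 and 6.40 on array 41.

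The fibrinogen chains were measured by Fga and Fgg. Fga probe ILMN_2624363 read 5.72, 5.58 and 5.44 on E17.5 mutant arrays 12, 40 and 42, against 12.05, 6.19 and 7.35 on E17.5 WT arrays 2, 38 and 41. Fga probe ILMN_1232567 read 6.03, 5.75 and 5.23 in the mutants, against 11.83, 6.02 and 7.06 in WT. Neither Fga probe was detected on any E14.5 array, where they read 4.62 to 5.10 in mutants and 4.63 to 5.01 in WT. Both probes put array 2 highest and array 38 lowest within WT.

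Fgg read 5.25, 5.69 and 5.55 on the E17.5 mutant arrays, against 11.41, 5.73 and 6.48 on E17.5 WT arrays 2, 38 and 41. At E14.5 Fgg read 5.60, 6.35 and 5.66 on mutant arrays 35, 59 and 65 and 5.60, 6.05 and 5.99 on WT arrays 34, 57 and 58. Outside array 2 the 4 groups lay within 5.25 to 6.48. The Fgb probe was detected on 0 of 12 arrays and read 4.58 on array 2, with Fga and Fgg bright on that array, so it gives no measure of its gene here.

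Apoa1 read 6.41, 6.05 and 5.66 on E17.5 mutant arrays 12, 40 and 42, against 11.89, 5.59 and 7.50 on E17.5 WT arrays 2, 38 and 41. At E14.5 it read 6.52, 6.52 and 6.32 on the mutant arrays and 6.01, 6.16 and 5.92 on the WT arrays. Array 38 lay below every mutant array for this gene, while arrays 2 and 41 lay above all of them.

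Trf, for transferrin, read 6.71, 6.97 and 6.92 on the E17.5 mutant arrays, against 12.87, 7.31 and 7.75 on E17.5 WT arrays 2, 38 and 41. At E14.5 it read 7.20, 7.08 and 6.93 in mutants and 6.28, 6.93 and 6.93 in WT. Every E17.5 WT array was above every E17.5 mutant array, with the lowest WT array at 7.31 and the highest mutant array at 6.97.

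Ttr and Afp differed from these genes in that they read 8.82 or higher on every E17.5 array. Ttr read 9.98, 9.02 and 9.10 on E17.5 mutant arrays 12, 40 and 42, against 12.98, 11.54 and 11.70 on E17.5 WT arrays 2, 38 and 41. At E14.5 Ttr read 6.25, 6.40 and 4.97 on mutant arrays 35, 59 and 65, and 7.47, 5.32 and 5.46 on WT arrays 34, 57 and 58. Mutants and WT did not overlap at E17.5, and they overlapped at E14.5.

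Afp read 9.41, 9.66 and 8.82 in E17.5 mutants, against 11.75, 9.29 and 9.74 in E17.5 WT. At E14.5 Afp read 7.01, 7.28 and 6.80 in mutants and 7.52, 5.80 and 6.42 in WT. The genotypes overlapped at both ages. Alb, the neighbour of Afp on chromosome 5 and the best known plasma protein gene, was not detected on any of the 12 arrays, array 2 included (4.59), so its probe gives no measure either.

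Serpina1a probe ILMN_1225699 read 6.38, 5.55 and 6.14 in E17.5 mutants, against 9.0, 6.38 and 6.41 on E17.5 WT arrays 2, 38 and 41. At E14.5 it read 5.39, 5.36 and 4.96 in mutants and 6.32, 5.03 and 5.30 in WT, detected on WT array 34 alone. Its second probe, ILMN_2777493, was detected on array 2 alone, at 7.72. Serpina1a has near-identical copies beside it, and which of them each probe reads is uncertain.

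**Figure D1:**
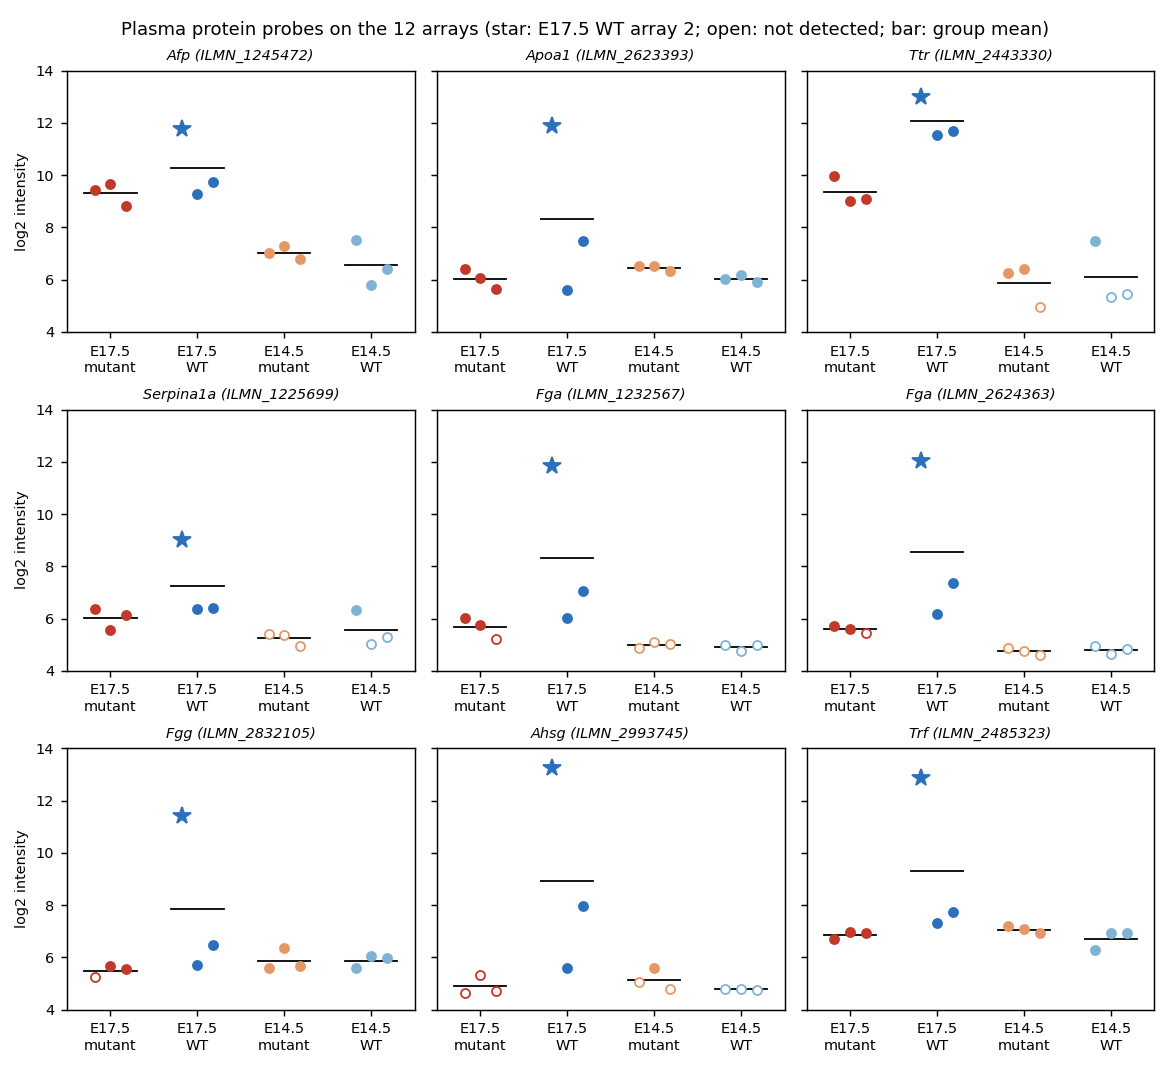
Normalized log2 intensity of the 9 kept plasma protein probes on each of the 12 arrays, by group, with open symbols where the probe was not detected and a bar at the group mean. The star is E17.5 WT array 2, which is the highest of the 12 arrays in each of the 9 panels.

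Within the E17.5 WT group, array 2 was set against the mean of arrays 38 and 41. The difference was 6.46 in log2 for Ahsg, an 88.3-fold higher intensity, which was the largest difference of the 21526 kept probes. Apoa1 (5.35, rank 3), Trf (5.34, rank 4), Fgg (5.30, rank 5) and both Fga probes (5.29 and 5.28, ranks 6 and 7) followed. Serpina1a was 2.61 higher (rank 30), Afp 2.24 (rank 37) and Ttr 1.36 (rank 91). The size of the difference thus ran from 2.57-fold for Ttr, which the other WT kidneys also showed strongly, to 88.3-fold for Ahsg.

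All 9 kept probes were over 1 log2 unit higher on array 2, against 0.836% of all kept probes, and their median was 5.29 against -0.02. The plasma protein probes held 6 of the 10 highest differences of this array. A probe of Mcm6 had rank 2, at 11.63 on array 2 against a mean of 5.92 on the other WT arrays, but the other 3 kept Mcm6 probes differed by less than 1. A single array has no replicate, so these differences carry no test.

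**Figure D2:**
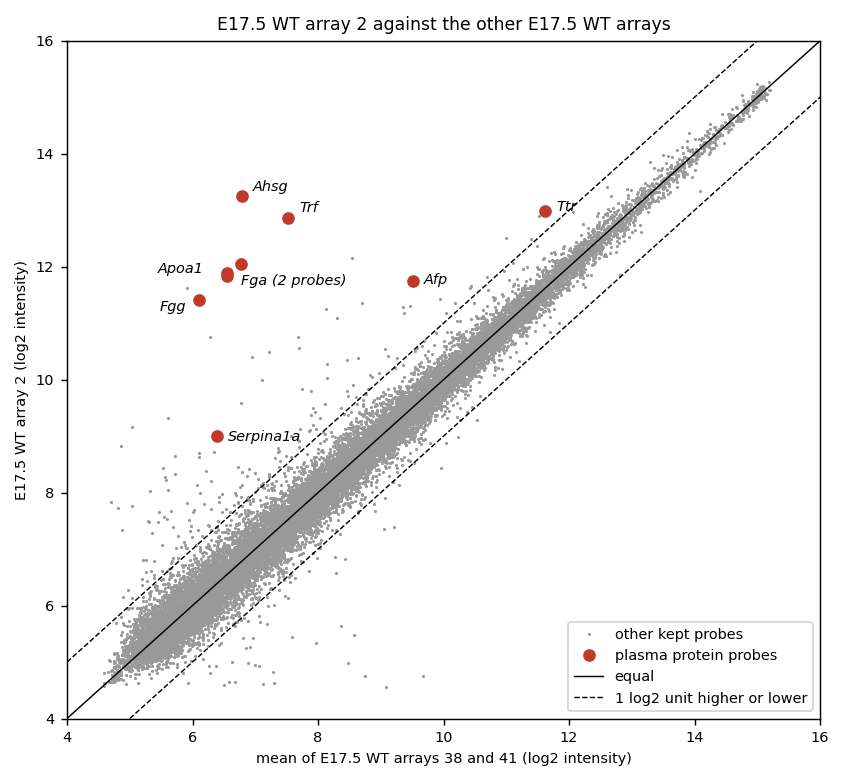
Log2 intensity on E17.5 WT array 2 (vertical) against the mean of E17.5 WT arrays 38 and 41 (horizontal) for the 21526 kept probes, plasma protein probes in red, with the line of equality and dashed lines at 1 log2 unit. The 9 red points lie above the upper dashed line, Ahsg farthest at 6.46 and Ttr nearest at 1.36.

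The same difference was taken for every array against the other 2 of its group. On E17.5 mutant arrays 12, 40 and 42, 0 of 9 probes were over 1 log2 unit higher, against 0.488%, 0.339% and 0.367% of all kept probes, and they lay between -0.71 and 0.92. E14.5 mutant arrays 35, 59 and 65 also had 0 of 9, against 0.739%, 0.232% and 0.279%, with a range of -1.35 to 0.80, and so had E14.5 WT arrays 57 and 58, against 0.544% and 0.297%. On E14.5 WT array 34, 3 of 9 were over 1 log2 unit higher, against 1.23% of all kept probes there: Ttr by 2.08, Afp by 1.41 and Serpina1a by 1.16. The genes that were highest on array 2 were not raised on array 34, with Ahsg at 0.02, Apoa1 at -0.03 and Trf at -0.65. The mean level of 27 kept proximal tubule genes was 7.20 on array 34, against 6.08 on array 57 and 6.54 on array 58, and its part in the values of array 34 was not tested.

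After normalization array 41 also read higher than array 38 for the plasma protein probes. All 9 kept probes were higher on array 41 than on array 38, and 4 of 9 by over 1 log2 unit, against 0.492% of all kept probes: Ahsg by 2.36 (rank 24), Apoa1 by 1.90 (rank 35) and Fga by 1.15 and 1.05 (ranks 84 and 101). Fgg differed by 0.75, Afp by 0.45, Trf by 0.44, Ttr by 0.16 and Serpina1a by 0.02. Before normalization array 41 was the dimmer array, with a median intensity of 10.8 against 18.9 on array 38. Its intensity was then lower for Afp (485 against 660), Ttr (1883 against 3049), Serpina1a (43.5 against 76.4) and Trf (123 against 160). It was higher for the kept Apoa1, Fga, Fgg and Ahsg probes. In the authors' normalized values Serpina1a alone was lower on array 41 (60.9 against 67.4). Arrays 38 and 41 both lay above every E17.5 mutant array for 5 of 9 probes, against 15.2% of all kept probes. No share over all kept probes was taken for array 41 alone, so its count above the mutants is not given. For Serpina1a array 41 read 6.41 against 6.38 on mutant array 12, and 60.9 against 68.2 in the authors' normalized values. Of the other lists, defined in the next paragraphs, 2 of 26 kept secreted plasma proteins, 0 of 11 hepatocyte intracellular genes, 0 of 15 erythroid genes and 2 of 12 skeletal muscle genes were over 1 log2 unit higher on array 41 than on array 38.

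**Figure D3:**
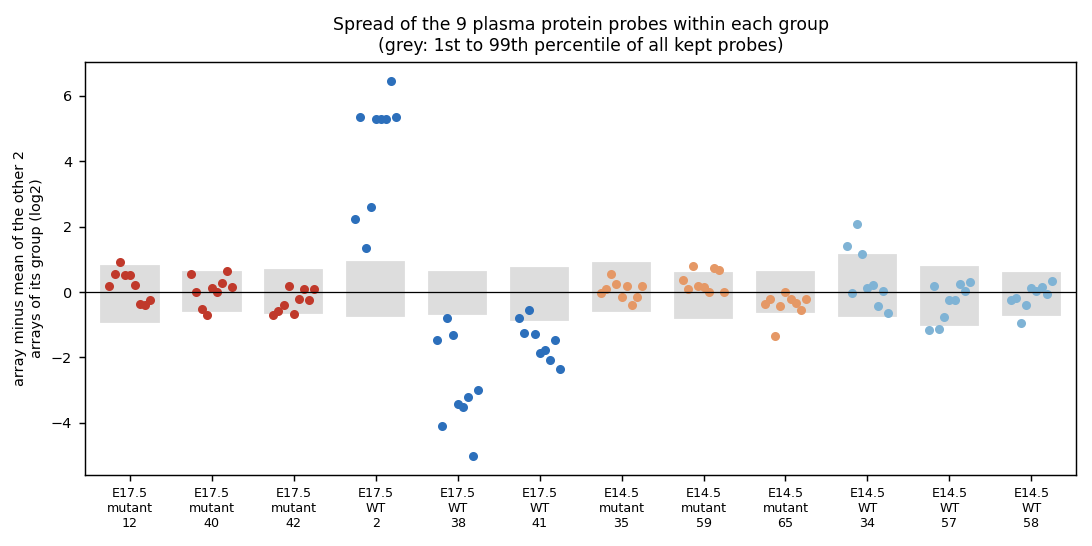
Difference in log2 intensity between each array and the mean of the other 2 arrays of its group for the 9 kept plasma protein probes (points), with the 1st to 99th percentile of all kept probes in grey. The points of E17.5 WT array 2 run from 1.36 to 6.46, those of the mutant arrays lie between -1.35 and 0.92, and arrays 38 and 41 fall below 0 because array 2 is in their comparison.

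Other genes of hepatocytes and of the fetal liver were read on array 2 in the same way. Of 63 other secreted liver plasma proteins, 58 were on the array and 26 were kept. On array 2, 15 of these 26 were over 1 log2 unit higher than on the other E17.5 WT arrays, with a median of 1.18. Genes detected on fewer than 3 arrays were not kept, so this list and the next ones leave out any gene detected on array 2 alone. Itih3, a heavy chain of the inter-alpha-trypsin inhibitors, differed by 4.49, Itih2 of the same family by 3.72, Serpina1d by 3.46, prothrombin (F2) by 2.93 and the retinol carrier Rbp4 by 2.9. The mean log2 level of these 26 genes was 9.05 on array 2, against 7.34 on array 38 and 7.66 on array 41, and 7.04 to 7.20 in the E17.5 mutants.

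Genes that act inside hepatocytes were read next. Of 45 such genes, 40 were on the array and 11 were kept. On array 2, 4 of these 11 were over 1 log2 unit higher, with a median of 0.34. This median does not describe hepatocyte genes detected on array 2 alone, which the filter leaves out. Arg1, the urea cycle arginase, read 7.72 on array 2, against 4.73 on array 38 and 4.91 on array 41, where it was not detected, a difference of 2.91 (rank 19). Cyp2e1 differed by 1.18, the transcription factor Foxa3 by 1.18, Ugt2b34 by 1.02 and Sult1a1 by 0.58. Several of the kept genes, such as Hnf4a, which differed by 0.11, and Ass1, by 0.15, are also made by the kidney tubule. Among the raised genes, Cyp2e1 was also detected on arrays 38 and 41 (7.17 and 6.93), and so was Foxa3 (6.22 and 6.27). Of the 11 genes, 8 were above 0, while Foxa1 (-0.23), Nr1i3 (-0.14) and Cyp7b1 (-0.10) were below.

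Red cell genes were read because the fetal liver makes blood. Of 28 erythroid genes, 15 were kept and 4 of these 15 were over 1 log2 unit higher on array 2: Trim10 by 1.93, the band 3 anion exchanger Slc4a1 by 1.48, the blood group gene Kel by 1.46 and the transcription factor Nfe2 by 1.15. The mean log2 level of these genes was 8.19 on array 2, against 7.45 on array 38, 7.55 on array 41 and 7.47 to 7.58 in the E17.5 mutants. Alpha-globin (Hba-a1) differed by -0.12 and was bright on each E17.5 WT array (14.98, 15.07 and 15.14 on arrays 2, 38 and 41). The globin gene Hbb-b2 differed by 0.73. Of the 15 erythroid genes, 13 were above 0. Of 9 kept genes of other blood cells of the fetal liver, Ltf (1.57) and Camp (1.10), both of neutrophil granules, were over 1 log2 unit higher.

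Genes of other tissues were read in the same way. On array 2, 0 of 10 kept yolk sac and intestine endoderm genes, 0 of 3 kept pancreas genes and 0 of 4 kept adrenal genes were over 1 log2 unit higher. The array held 16, 15 and 15 genes of these lists, and those detected on fewer than 3 arrays were not kept. A gene detected on array 2 alone could not be counted, so these counts do not show that such genes were absent. Lgals4 of the endoderm list was over 1 log2 unit lower, at 6.83 on array 2, against 8.39 on array 38 and 8.48 on array 41 (-1.61). Of 12 kept skeletal muscle genes, 1 was over 1 log2 unit higher, Myl1 at 1.01, which read 7.39 on array 2, 5.59 on array 38 and 7.18 on array 41. Of 18 kept kidney defining genes, 0 differed by over 1 log2 unit in either direction, with a median of -0.01. Of 27 kept proximal tubule genes, 1 was over 1 log2 unit higher, Miox at 1.12, and 1 over 1 log2 unit lower, Slc13a3, which read 4.98 on array 2, against 8.28 on array 38 and 8.69 on array 41 (-3.51). The median of the 27 was 0.29. The receptors that take up filtered plasma proteins differed by 0.01 for megalin (Lrp2) and 0.45 for cubilin (Cubn), and by 0.24 for the transferrin receptor (Tfrc). The part of carried-over liver, blood or any other source in the values of array 2 was not tested.

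**Figure D4:**
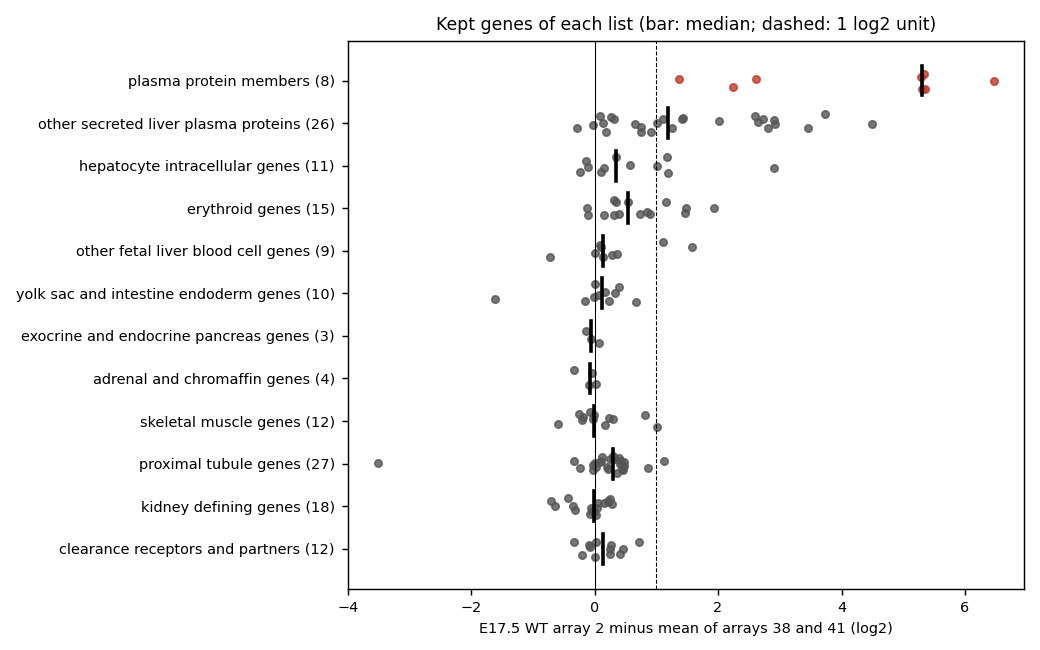
Difference in log2 intensity between E17.5 WT array 2 and the mean of E17.5 WT arrays 38 and 41 for each kept gene of 12 gene lists (1 point a gene, the number kept in parentheses, a bar at the median, a dashed line at 1). The medians are 5.30 for the plasma protein genes, 1.18 for other secreted plasma proteins, 0.53 for erythroid genes, 0.34 for hepatocyte intracellular genes and -0.01 for kidney defining genes.

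Outside these lists, with each gene read by the kept probe that was brightest on average, which for Mcm6 is another probe than the one above, Crp had the highest difference of a named gene. Crp, which encodes the liver's C-reactive protein, read 9.17 on array 2 against 5.07 and 5.0 on arrays 38 and 41, where it was not detected, a difference of 4.13. Mettl14 (3.96), Sec24d (3.12), Pkhd1 (2.71), Snx5 (2.60), Lrrc57 (2.54), 3110040M04Rik (2.39), Spink8 (2.13), Thumpd1 (2.09) and Bag2 (2.06) followed. Of these 10 genes, Crp, Pkhd1 and 3110040M04Rik were highest of the 12 arrays on array 2, and the other 7 were higher on at least 1 other array. The highest of the other 11 arrays read 7.60 for Crp, 7.15 for Pkhd1 and 8.12 for 3110040M04Rik. The lowest differences were those of Pdrg1 (-4.92), Zfp334 (-4.53), Ptpra (-3.99), Arl14epl (-2.72) and Poli (-2.64), each of which was lower still on at least 1 other array.

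Genes that lie next to the members were read from the RefSeq order. Of 32 kept neighbours within 4 protein-coding genes, 4 were over 1 log2 unit higher on array 2: Serpina1d (3.46), Serpina1b (2.80) and Serpina1c (2.72), the copies beside Serpina1a, and 1300017J02Rik (1.35) beside Trf. Kng2 (1.00) and Kng1 (0.91), which encode kininogens near Ahsg, and Afm (0.64), which encodes afamin beside Afp, were also higher. The median over the 32 neighbours was 0.10.

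The mutant kidneys were compared with WT at E17.5, to ask which genes differ with loss of Pkd1 once cysts have formed. All 9 kept probes were lower in mutants, by a median of 2.44 in log2, while the median over all kept probes was 0.01. Ttr was the 1 probe of 9 that passed an adjusted p of 0.05 in limma (called), against 1.25% of all kept probes called lower. Ttr averaged 9.37 ± 0.53 in mutants and 12.07 ± 0.79 in WT (SD, n = 3 each), a log2 difference of -2.70 with a standard error of 0.59 (adjusted p = 0.0387, limma). When 1 array at a time was left out, this adjusted p ran from 0.0116 to 0.126, and the call was lost when any 1 of 7 arrays was left out. It held without E14.5 WT array 34, 57 or 58, E14.5 mutant array 65 or E17.5 WT array 38. An unadjusted p under 0.05 was reached by 6 of the 9, against 19.5% of all kept probes. The groups did not overlap for 5 of the 9 probes (Ttr, Fga ILMN_2624363, Fgg, Ahsg and Trf), against 10.9% of all kept probes that were lower in mutants with no overlap.

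Without array 2, 0 of 9 probes were called, against 0.539% of all kept probes called lower, and the median was -0.66. An unadjusted p under 0.05 was reached by 6 of 9, against 16.2% of all kept probes. Ttr then averaged 9.37 ± 0.53 (SD, n = 3) in mutants and 11.62 ± 0.12 (SD, n = 2) in WT, which differ by -2.25 with a standard error of 0.61 (adjusted p = 0.119, limma). All 9 probes remained lower in mutants, and the same 5 probes did not overlap, against 15.2% of all kept probes with 2 WT arrays left.

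The same E17.5 comparison was read for the lists. Of 26 other secreted plasma proteins, 3 were called lower in mutants with all 12 arrays and 2 without array 2, with medians of -0.91 and -0.38. Of 27 proximal tubule genes, 8 were called lower in both fits, and their mean level was 8.38 to 8.54 in E17.5 mutants and 9.49 to 9.70 in E17.5 WT. The part of these tubule genes' difference in that of Ttr was not tested. The 11 hepatocyte intracellular genes had medians of -0.25 with array 2 and -0.15 without it.

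The fold change of the other genes depended far more on that array. Ahsg, not detected in any mutant kidney, was at least 11.1-fold lower in mutants with all 12 arrays (adjusted p = 0.131, limma) and at least 2.49-fold lower without array 2 (adjusted p = 0.123). These bounds set the mean of WT against the lowest level at which a probe is detected on the mutant arrays. That level was 5.44 to 5.51, and E17.5 WT array 38 read 5.60 for Ahsg, so the bounds do not hold for array 38 alone. The Ahsg probe was itself kept through the 3 E17.5 WT arrays and 1 E14.5 mutant array. For Fga ILMN_2624363 the log2 difference was -2.95 with array 2 (adjusted p = 0.159) and -1.19 without it (adjusted p = 0.0646). Trf had -2.44 with and -0.66 without array 2, Fgg -2.37 and -0.60, Apoa1 -2.29 and -0.51, Serpina1a -1.24 and -0.37, and Afp -0.96 and -0.21. None of these passed the threshold in either fit.

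Standard errors were also larger with array 2 for most of these genes. The standard error of Fga ILMN_2624363 was 1.06 with array 2 and 0.26 without it, and that of Trf 1.06 and 0.21, while that of Ttr was 0.59 and 0.61. With both arrays 2 and 41 left out, a choice made after seeing the data, array 38 alone stands for E17.5 WT and is assumed to vary like the other groups. The log2 difference was then 0.44 for Apoa1 and 0.01 for Afp, the opposite direction, and -2.17 for Ttr (adjusted p = 0.576).

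**Figure D5:**
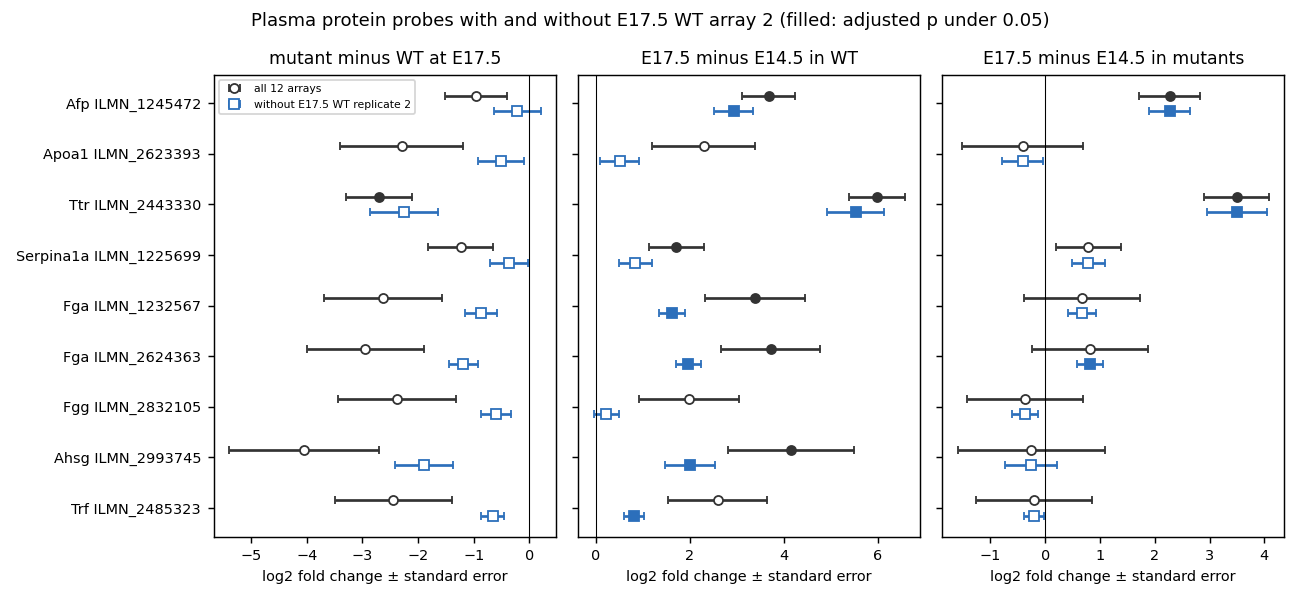
Log2 fold change ± standard error from limma for the 9 kept plasma protein probes with all 12 arrays (circles) and without E17.5 WT array 2 (squares), for mutant over WT at E17.5, E17.5 over E14.5 in WT and E17.5 over E14.5 in mutants, filled where the adjusted p is under 0.05. The E17.5 genotype difference of Ttr is -2.70 with and -2.25 without array 2 and that of Ahsg -4.05 and -1.89, and the mutant panel has the same estimates in both.

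At E14.5, 0 of 9 probes were called between mutants and WT, against 0.0465% of all kept probes called in either direction. An unadjusted p under 0.05 was reached by 0 of 9, against 2.99% of all kept probes. The median log2 difference was 0.08. Apoa1 averaged 6.45 ± 0.12 in mutants and 6.03 ± 0.12 in WT (SD, n = 3 each) and was the 1 probe whose groups did not overlap, higher in mutants, against 4.51% of all kept probes. The other estimates ran from -0.31 for Serpina1a to 0.45 for Afp.

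The later age was compared with the earlier one within each genotype. In mutants, Afp and Ttr rose at E17.5, 2 of 9 probes called against 19.6% of all kept probes called higher. Ttr averaged 9.37 ± 0.53 in E17.5 mutants and 5.87 ± 0.79 in E14.5 mutants (SD, n = 3 each), a rise of 3.49 in log2 with a standard error of 0.59 (adjusted p = 6.41e-04, limma). Afp averaged 9.30 ± 0.43 in E17.5 mutants and 7.03 ± 0.24 in E14.5 mutants, a rise of 2.27 with a standard error of 0.56 (adjusted p = 0.00666). Without array 2, whose spread the groups share, Fga ILMN_2624363 was called as well (at least 1.06-fold, adjusted p = 0.0157), 3 of 9 against 20.2% of all kept probes. That Fga probe was kept through E17.5 arrays alone, as it was not detected at E14.5. Apoa1, Fgg, Ahsg and Trf had estimates between -0.41 and -0.20. Of the 26 other secreted plasma proteins, 9 were called higher at E17.5 in mutants and 13 without array 2.

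In WT, 6 of 9 probes of 5 genes rose at E17.5, against 18.2% of all kept probes called higher. Ttr averaged 12.07 ± 0.79 at E17.5 and 6.09 ± 1.20 at E14.5 (SD, n = 3 each), a rise of 5.99 in log2 with a standard error of 0.59 (adjusted p = 2.00e-05, limma), and Afp rose by 3.68 (adjusted p = 3.62e-04). Serpina1a rose by 1.71 (adjusted p = 0.0341). Fga, not detected at E14.5, was at least 7.0-fold higher at E17.5 by ILMN_1232567 (adjusted p = 0.0229) and at least 8.17-fold by ILMN_2624363 (adjusted p = 0.0139). Ahsg was at least 10.9-fold higher (adjusted p = 0.0258). The kept Ahsg probe was detected on the 3 E17.5 WT arrays and on 1 E14.5 mutant array, and the Fga probes at E17.5 alone. These probes thus passed the filter mainly through arrays on which they are high, so their calls, with or without array 2, are not independent of the filter. The count was 3 of 9 without E14.5 WT array 57 or 58 and 9 of 9 without E17.5 WT array 38. Of all 21526 kept probes, 7514, 7429 and 8157 were called in either direction in these fits, and 9289 with all 12 arrays. Of the 26 other secreted plasma proteins, 18 were called higher with array 2 and 18 without it.

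Without array 2 the count in WT was again 6 of 9 probes of 5 genes, against 18.2% of all kept probes, with 1 gene lost and 1 gained. Ttr rose by 5.53 (adjusted p = 1.06e-04) and Afp by 2.94 (adjusted p = 4.00e-04). The bounds were at least 2.06-fold and 2.41-fold for the Fga probes (adjusted p = 0.00131 and 2.89e-04) and at least 2.44-fold for Ahsg (adjusted p = 0.0113). Serpina1a, at 0.84, was no longer called (adjusted p = 0.0708), and Trf, at 0.82, was called (adjusted p = 0.00931). Apoa1 (0.51) and Fgg (0.22) did not pass.

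The genotype difference at E17.5 was set against that at E14.5, to ask whether the gap widens with age. Of the 9 probes 0 were called, with array 2 and without it, against 0.167% of all kept probes in both fits. An unadjusted p under 0.05 was reached by 2 of 9 with array 2, against 10.4% of all kept probes, and by 5 of 9 without it, against 9.37%. The difference was -2.49 for Ttr with all 12 arrays with a standard error of 0.83 (adjusted p = 0.363, limma) and -2.04 without array 2 (adjusted p = 0.49). For Trf it was -2.79 (adjusted p = 0.545) and -1.01 (adjusted p = 0.35). The comparisons of genotype at E17.5 and of age in WT share the E17.5 WT arrays, array 2 among them.

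Across the 12 arrays the 36 pairs of kept probes had Pearson correlations of 0.51 to 1.00 with a median of 0.89, given as a description because array 2 and the ages are shared by every point. Without array 2 the range was -0.20 to 0.97 and the median 0.58, with 14 of 36 pairs under 0.5. Ttr and Afp stayed together at 0.93, and Fga stayed with Ttr at 0.88 and 0.92. Fgg was near 0 with Ttr (-0.04) and Afp (-0.16), and Apoa1 was near 0 with Ttr at 0.14.

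The genes whose pattern over the 12 arrays was most like the mean of the 9 probes, among 1620 probes with an SD of at least 0.5, were Itih1 (Pearson r = 0.99), Itih3 (0.98), Serpina1c (0.97), Serpina1d (0.97), Uroc1 (0.96), Rbp4 (0.96), Foxa3 (0.95) and Serpina1b (0.94). Over the 11 arrays without array 2 they were Adap1 (0.98), Pcx (0.97), Uroc1 (0.97), F10 (0.96), Nkx6-2 (0.96), A730049H05Rik (0.96), Khk (0.96) and Slc22a18 (0.96), among 1635 probes. Uroc1 was the 1 gene in both sets of 8. The mean of the 9 probes was 11.89 on array 2 and 7.99 or less on each other array. The correlations over the 12 arrays thus rest largely on array 2 and are given as a description.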

How the data were processed

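The authors scanned Illumina Mouse WG-6 version 2 BeadChips and summarised the beads in BeadStudio. The deposited intensity of each probe was not normalized between arrays but was already background subtracted, since 31.3 to 34.0% of the values of each array were at or below 0. Beside it the authors deposited a detection p-value. Their separate table of background-adjusted, quantile normalized intensity values served as an alternative.

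Intensities were corrected by the normal-exponential model with an offset of 16, quantile normalized and log2 transformed in limma 3.58.1 (R 4.3.3). Quantile normalization gives each array the same distribution, so levels are relative. Probes with a detection p under 0.05 on at least 3 of 12 arrays were kept. A linear model of the 4 group means was fitted with moderated variances, and p-values were adjusted by Benjamini-Hochberg over the 21526 kept probes. Each comparison was repeated without E17.5 WT array 2, normalized as before. The scripts were tested on simulated data. For list genes with several kept probes, the brightest on average was used. "At least" folds set the mean of the brighter group against the detection floor of each array.

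The members, lists and comparisons were chosen with earlier results of these data known. Named were the 5 largest differences on array 2 of the other plasma proteins and hepatocyte intracellular genes, and the 10 highest and 5 lowest genes outside the lists by their brightest probe. The rule gave 3 genes for each other list, of which those of the erythroid list and, elsewhere, those over 1 log2 unit were printed. Some were named after their values were seen (Mcm6, Hnf4a, Ass1, Foxa1, Nr1i3, Cyp7b1, Nfe2, Hba-a1, Hbb-b2, Lrp2, Cubn, Tfrc, Slc13a3 and Lgals4). Replicates are separate kidney pairs. The number of arrays limits the precision.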

Additional observations from a re-analysis of the deposited data

How the results depend on the processing

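Kept plasma protein probes called between mutants and WT at E17.5 were 1 of 9 as reported, against 551 of all 21526 kept probes. Counts over all probes in this paragraph are of calls in either direction. The count was 0 with no further background correction, against 305 of 21526, and with the authors' table, against 425. It was 0 of 13 with no filter, against 499 of 45281 probes. With detection on all 12 arrays required it was 0 of 3, against 404 of 16865. With robust empirical Bayes it was 0, against 574 of 21526. At the methods' thresholds of a fold of 2 and an unadjusted p of 0.05 it was 6, against 197 of 21526. Leaving out 1 array at a time gave 0 to 2, against 176 to 607 of 21526. Ttr had an adjusted p of 0.0116 to 0.126 in limma. It passed without E14.5 WT array 34, 57 or 58, E14.5 mutant array 65 or E17.5 WT array 38. Ahsg passed without E17.5 WT array 38 (-5.72, adjusted p = 0.0262, limma). For age in WT the count of 6, against 9289 of 21526, was 3 with no filter, against 9205 of 45281. It was 1 with detection on all 12 arrays, against 7722 of 16865, and 3 with robust empirical Bayes, against 9259 of 21526. With only those 2 groups fitted it was 2, against 8084 of 21526. It ran from 3 to 9 when 1 array was left out. The count was 3 without E14.5 WT array 57 or 58, against 7514 and 7429 of 21526, and 9 without E17.5 WT array 38, against 8157. For age in mutants the count of 2, against 9384 of 21526, was 1 with detection on all 12 arrays, against 7802 of 16865. It was 5 with only the 2 groups fitted, against 9376 of 21526. When 1 array was left out it was 2 to 3, against 7431 to 9925 of 21526. The causes of these changes were not tested.

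Estimates that turned direction were small: Ahsg for age in mutants was 0.057 with array weights. Without E17.5 WT arrays 2 and 41 together, chosen after seeing the data, the genotype difference at E17.5 was 0.011 for Afp and 0.44 for Apoa1, and age in WT was -0.44 for Apoa1 and -0.15 for Fgg. Leaving out 1 array moved the E14.5 genotype difference across 0 for Ttr (-0.59 to 0.48), Serpina1a (-0.57 to 0.073), Fga (-0.0047 to 0.13 by ILMN_1232567 and -0.13 to 0.030 by ILMN_2624363) and Fgg (-0.25 to 0.13). No paired analysis was possible because the groups share no replicate numbers. Alb and Fgb were at background on every array, and their probes set no limit on the level of the genes.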
